A study of Mus musculus with 161 samples.

Results

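The domain described here is the segment of the mouse X chromosome between the first and second boundary bins of the region studied, chrX:99171148-99411148 in mm9, 240 kb long. Its members are the pairs of 1 forward and 1 reverse 5C primer whose restriction fragments both had their midpoint in the segment and lay 40 kb or more apart, which left 491 pairs of the 211564 held by every corrected matrix. They join 27 forward and 27 reverse fragments. Another 102 pairs meet the rule in the primer design but are not in the corrected matrices, so 593 pairs were designed and 491 are described. The members were chosen by position alone, with no measured value.

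A topologically associating domain is a stretch of chromosome whose loci contact one another more often than loci outside it. In the loop extrusion view, cohesin reels in DNA until it meets CTCF, a zinc-finger protein that binds an asymmetric motif, so that contacts gather between CTCF sites whose motifs point at each other. The N terminus of CTCF holds a short motif that contacts cohesin, and the C-terminal part holds an RNA-binding region. 5C (chromosome conformation capture carbon copy) counts ligations between designed fragments, so each member is a contact frequency between 1 pair of loci.

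The series holds 91 5C libraries from mouse embryonic stem cells of the male line E14Tg2a, which has a single X. In the transgene lines the endogenous CTCF carried an auxin-inducible degron (AID) next to Tir1, and auxin was given for 4 days together with doxycycline (dox), which switched on a TetO-driven CTCF cDNA through Rtta3G. The reference was the full-length cDNA in line EN133.10 (n = 14), and the same line was also taken with auxin but without dox (n = 2), so that the cDNA was not induced. A second full-length line (EN133.6) expressed the cDNA at a low level (n = 2).

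The other transgene lines carried changed cDNAs. N-terminal deletions, named dN, were dN(1-265) in clone 1 (n = 6) and clone 2 (n = 4), dN(1-89), dN(90-178), dN(179-265) and dN(264-288) (n = 2 each), dN(1-31) in 2 clones (n = 2 each), and dN(13-33) in clone 1 (n = 6) and clone 2 (n = 4). The labels write dN(1-89) as Del_1-88 and dN(90-178) as 89-178. Point mutants were H288R and Y226A/F228A (n = 2 each), and dN(13-33)+Y226A/F228A (n = 2) joined a deletion with a point mutant. C-terminal deletions were Del_576-614 in line EN142.1 (n = 3), Del_577-736 and Del_615-736 (n = 1 each), shown as dC in the plots. Replicate 1 of Del_576-614 was made from line EN142.1 like the others but is labelled Del_615-736. The remaining cDNAs had the N and C termini exchanged (N/C swap), a parylation mutant or 1 of 2 sumoylation mutants (n = 2 each). Untreated cells made up the other libraries: the untagged parental line (n = 3) with endogenous d13-33 clones 1 (n = 3) and 2 (n = 4), and the CTCF-AID parental line with its own endogenous d13-33 AID clones 1 and 2 (n = 4 each). Each line is 1 clone, so a difference between lines carries the clone with it. The study describes its replicates as biological, but the labels do not say which libraries came from separate cultures, and p-values measure the spread between these libraries only.

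Depth was ample for sums over the domain and thin for single pairs. The members held between 23989 and 175927 raw counts in a library, with a median of 83247, which gives a counting error on the log2 scale of 0.0034 to 0.0093. Complete count matrices totalled 3631870 to 23419010 counts. Of the corrected member values, 0.613% were 0. No pair of libraries had equal counts in more than 2.47% of compared entries. Of the full-length libraries, 2 (replicates 3b and 4b, from a run that also held untagged parental libraries) stood apart from the other 12, with the highest full-length values for contacts in the domain (0.39 and 0.37 on the log2 observed/expected scale defined below) and between its ends. Part of that rests on 1 pair, that of fragments 8 and 46 described below: without it both had 0.33 in the domain, against 0.32 for the next library, and between its ends replicate 3b had 0.17 in place of 0.53 and replicate 4b 0.25 in place of 0.45. Replicates 12 and 13, from the same run as the Y226A/F228A lines, had the lowest (0.28 and 0.27). Runs are stretches of neighbouring library numbers, and what libraries of a run shared is not given in the sources used here.

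The annotation places Nhsl2 across boundary 1 and the left part of the domain (plus strand, 99044724 to 99287394 on chrX). Rgag4, a gene derived from a retrotransposon, lies inside the span of Nhsl2 on the minus strand (99261883 to 99266643). To its right come Pin4, a peptidyl-prolyl isomerase (99314786 to 99323008), Ercc6l, a DNA translocase that acts in mitosis (99337055 to 99352430), and Rps4x, a protein of the small ribosomal subunit (99380280 to 99384733). The pseudogenes Gm5125, Gm16471, Gm9103 and Gm14859 also lie in the segment, and Cited1, a transcriptional coregulator, starts past boundary 2 (99442720 to 99447520). 5C gives no expression of these genes.

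The list of FLAG–CTCF peaks, made in the full-length line after 2 days of auxin and dox, holds 9 peaks of 200 bp in the domain, 1 in boundary 1 and 3 in boundary 2. The 12-letter pattern CCNNNAGNNGGC, taken from the core of the CTCF motif and searched on both strands, occurs in 50.8% of all 49682 peaks and in 3.80% of windows of the same length placed 2 kb away. It occurs in 4 of the 9 domain peaks. The peaks below are shown because they lie at the ends of the contacts described further on: boundary 1 and the fragment just inside it, the fragment at Rgag4 that contacts it most, a peak near Ercc6l and boundary 2. Sequences are the plus strand of mm9, and capitals mark the match. In the boundary 1 peak, in that at 99254823, in that at 99358528 and in that of boundary 2 the match reads on the plus strand, and in that at 99261600 on the minus strand. The match in the peak at 99261600, at 99261652 to 99261663, lies off the centre of its peak. The other matches shown lie near the centre of theirs. Whether the match off the centre is the bound site was not tested. The peak at 99176901 has no match, which says only that these letters are not in it.
Boundary 1 peak, chrX:99170321-99170520: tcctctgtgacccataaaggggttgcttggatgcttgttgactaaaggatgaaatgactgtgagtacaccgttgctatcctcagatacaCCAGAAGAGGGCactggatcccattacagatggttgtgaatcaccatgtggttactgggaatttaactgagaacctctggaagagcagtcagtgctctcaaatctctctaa
Peak in fragment 2, chrX:99176901-99177100: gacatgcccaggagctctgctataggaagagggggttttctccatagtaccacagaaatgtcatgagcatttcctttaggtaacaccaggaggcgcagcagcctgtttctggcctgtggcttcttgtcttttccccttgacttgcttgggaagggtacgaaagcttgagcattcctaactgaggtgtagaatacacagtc
First peak in fragment 20, chrX:99254823-99255022: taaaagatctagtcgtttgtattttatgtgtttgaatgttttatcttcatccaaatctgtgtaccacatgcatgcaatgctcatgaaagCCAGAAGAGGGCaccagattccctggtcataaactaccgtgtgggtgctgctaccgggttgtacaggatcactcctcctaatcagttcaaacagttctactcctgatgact
Second peak in fragment 20, chrX:99261600-99261799: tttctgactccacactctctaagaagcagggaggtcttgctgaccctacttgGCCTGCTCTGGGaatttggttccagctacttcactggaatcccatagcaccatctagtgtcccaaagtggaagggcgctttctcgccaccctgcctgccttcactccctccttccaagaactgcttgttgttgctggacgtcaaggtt
Peak in fragment 41, chrX:99358528-99358727: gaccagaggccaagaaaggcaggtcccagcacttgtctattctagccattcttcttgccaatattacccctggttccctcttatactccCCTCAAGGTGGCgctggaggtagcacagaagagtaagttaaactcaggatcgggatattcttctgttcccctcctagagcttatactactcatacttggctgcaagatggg
Boundary 2 peak, chrX:99414572-99414771: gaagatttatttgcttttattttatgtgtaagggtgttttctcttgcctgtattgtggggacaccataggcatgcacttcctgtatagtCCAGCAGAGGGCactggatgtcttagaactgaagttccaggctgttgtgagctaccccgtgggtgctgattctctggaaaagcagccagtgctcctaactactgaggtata

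Contacts in the domain exceeded the mean of the region at the same separation in every library. The measure is log2 of the summed corrected contacts of the members over the sum expected at their separations, where the expected value is the mean over all pairs of the region in the same 20-kb class of separation in that library (log2 observed/expected). In the 14 full-length libraries its mean was 0.31 ± 0.033 (SD), with a range of 0.27 to 0.39, or 1.24-fold. Over all 91 libraries the fold ranged from 1.15 to 1.31. The spread between full-length libraries was larger than counting error. Of the 491 members, 308 (62.7%) had a full-length mean above the expected value, and the quartiles of observed/expected were 0.846, 1.14 and 1.46. Since the expected value is 1 number per 20-kb class, pairs at the near end of a class read high by construction. The 23 members between 40 and 45 kb apart had a full-length value of 0.53 and the 35 domain pairs just under the limit, between 35 and 40 kb, had -0.31.

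The domain's edges were unlike. Pairs across boundary 1, with 1 end in the domain and the other before the boundary bin (563 pairs, 40 to 240 kb apart), had a full-length mean of 0.26 ± 0.067 (SD, n = 14), near that of the members. Across boundary 2 (569 pairs) it was -0.52 ± 0.058. The 2 ranges, 0.18 to 0.41 and -0.67 to -0.45, did not overlap. In the full-length line 60.2% of pairs across boundary 1 and 15.3% of those across boundary 2 had a mean above the expected value. Against the mean of the segments between boundaries 2 and 3, 4 and 5, and 5 and 6, the members were higher by 0.25 ± 0.029 in the full-length line and by 0.18 to 0.35 over all libraries. These segments were unlike, with medians over all libraries of 0.20, 0.085 and -0.095 in that order, against 0.31 for the members. Between boundaries 2 and 3 the range of 0.086 to 0.29 overlapped that of the members, 0.20 to 0.39.

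**Figure D1:**
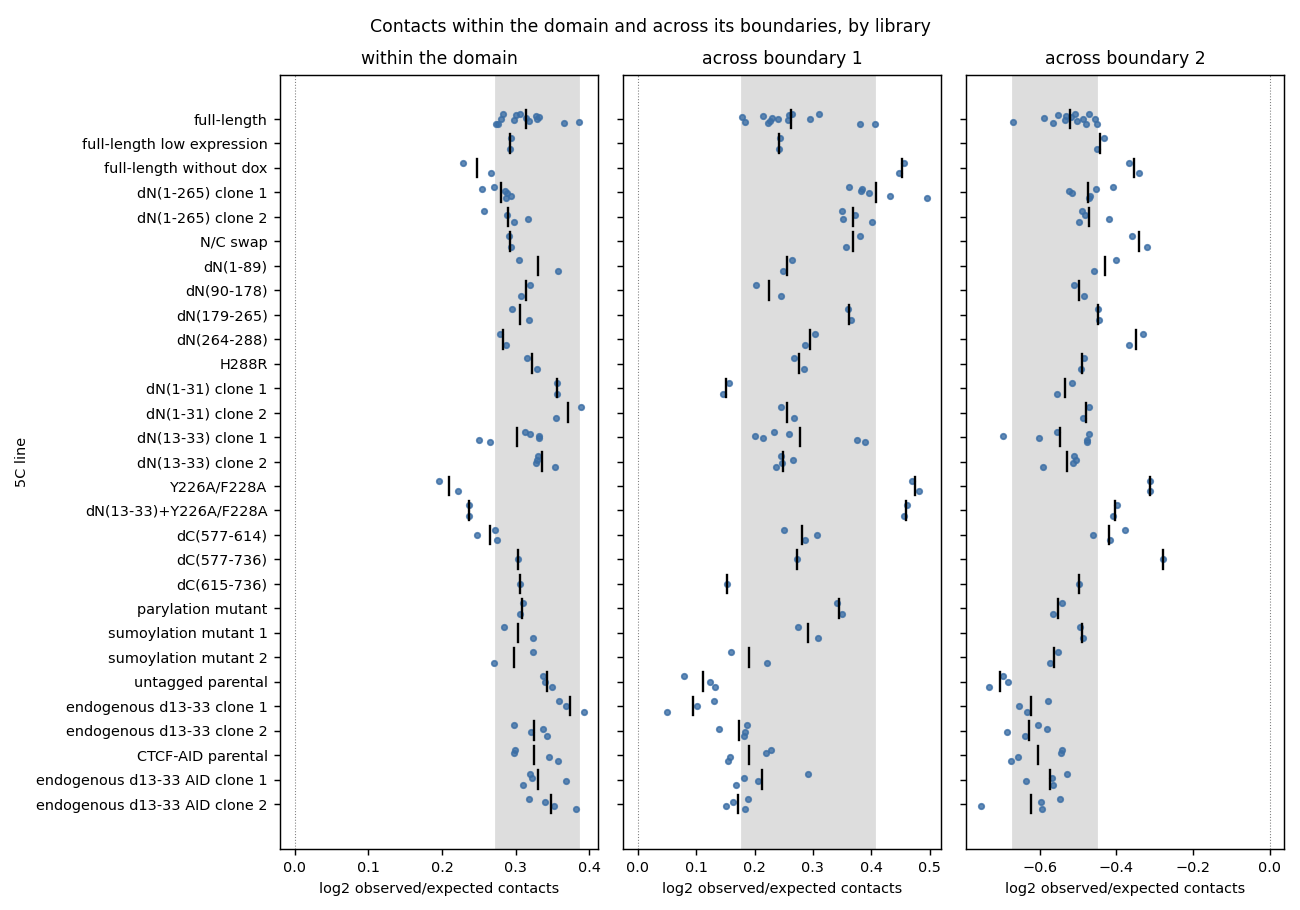
Log2 observed/expected contacts of each 5C library within the domain (left), across boundary 1 (middle) and across boundary 2 (right). Each point is 1 library, the bar is the mean of the line and the grey band spans the 14 full-length libraries. Both Y226A/F228A libraries lie left of the band within the domain and right of it across both boundaries, and the untagged parental line lies left of it across boundary 1.

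Within the domain the contacts were concentrated at the boundary 1 edge. Members with an end in the first 20 kb inside boundary 1 had the highest value of all 12 such bins in 91 of 91 libraries, between 0.50 and 1.06 with a median of 0.80. In the last 20 kb before boundary 2 the values ran from -0.10 to 0.32, with a median of 0.026. The full-length means were 0.83 in the first bin, 0.40 in the second, 0.13 in the third, 0.50 and 0.46 between 60 and 100 kb, where Rgag4 lies at the far end, and -0.0074 between 160 and 180 kb, over Ercc6l. This profile was picked after its values were seen and was not tested. Contacts between the first and second 60 kb of the domain had a full-length mean of 0.75, those between the first and the third 0.35, and those between the third and the last -0.067.

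The fragments followed the same gradient. The highest full-length means over a fragment's members were 0.98 ± 0.15 (SD, n = 14) for fragment 2 (99174312 to 99177063, 21 members), 0.92 ± 0.12 for fragment 4 (99178375 to 99182351) and 0.89 ± 0.10 for fragment 1 (99168690 to 99174312), counted from the left and all in introns of Nhsl2. Fragment 2 overlaps the peak at 99176901. The lowest were -0.46 ± 0.27 for fragment 37 (99343502 to 99343781, an intron of Ercc6l), -0.45 ± 0.16 for fragment 41 (99355711 to 99358816) and -0.37 ± 0.20 for fragment 43 (99359001 to 99359875), the latter 2 between genes. Fragment 41 also overlaps a peak, that at 99358528, and fragment 1 the boundary 1 peak, so 2 of the 3 highest and 1 of the 3 lowest fragments hold a peak. Among the 27 forward and 27 reverse fragments, only fragments 1, 2, 3, 20, 41 and 47 overlap a peak. Fragment 3 shares that at 99176901 with fragment 2.

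**Figure D2:**
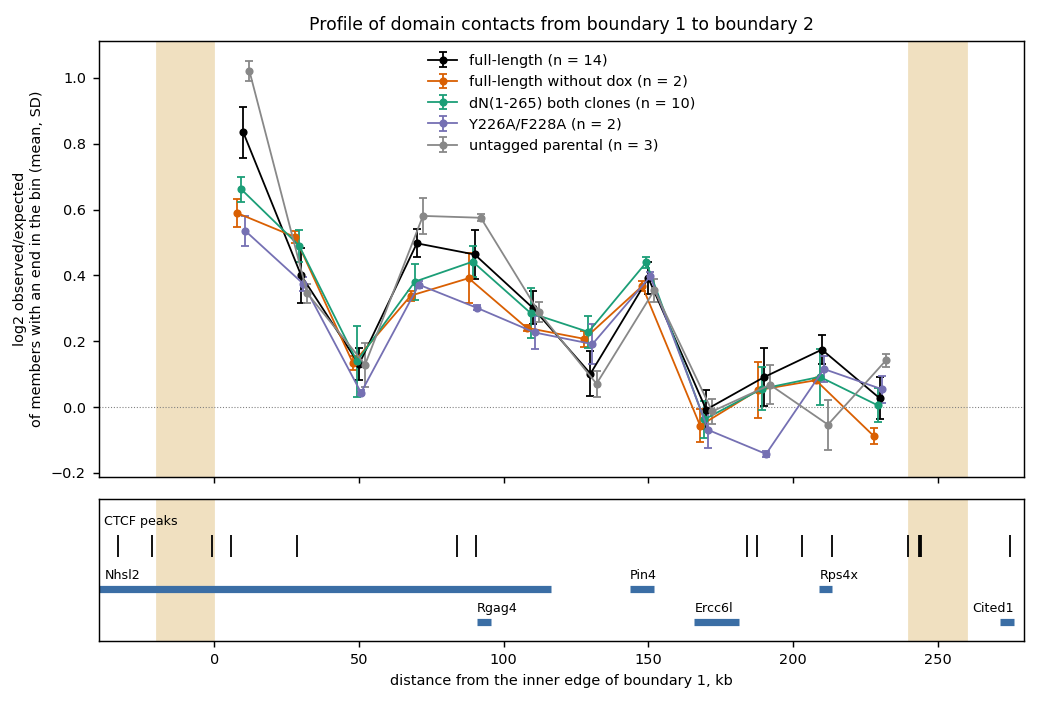
Log2 observed/expected of members with an end in each 20-kb bin, against distance from the inner edge of boundary 1 in kb, as mean and SD over libraries, above the FLAG–CTCF peaks and genes of the segment. Tan bands are the boundary bins. The first bin is highest in each of the 5 groups shown, at 0.83 in full-length, 0.59 without dox and 1.02 in untagged parental cells.

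By separation, the full-length values were 0.33 at 40 to 80 kb, 0.26 at 80 to 120 kb (121 members), 0.18 at 120 to 160 kb (117), 0.47 at 160 to 200 kb (78) and 0.58 at 200 to 240 kb (21). The SD between libraries rose from 0.040 in the first class to 0.16 and 0.13 in the last 2. In the longest classes few members carry the value, and the class from 160 to 200 kb holds the highest member of all, the pair of fragments 8 and 46.

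**Figure D3:**
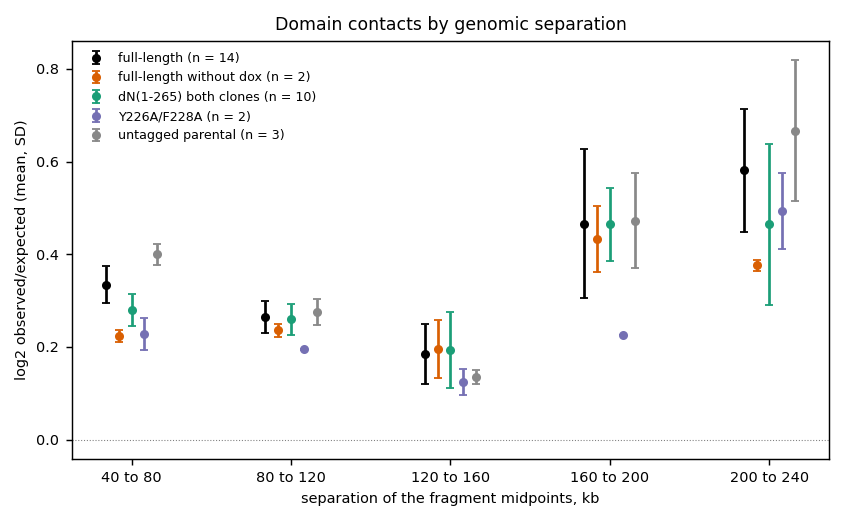
Log2 observed/expected of the members in 5 classes of separation in kb, as mean and SD over libraries. At 40 to 80 kb full-length was at 0.33, without dox at 0.22 and Y226A/F228A at 0.23, while from 120 to 160 kb the means of full-length and without dox were 0.18 and 0.20.

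The members ranged from 0.106 to 10.9 times the expected value in the full-length mean, and single pairs varied between libraries by a median coefficient of variation of 27.9%. The highest was the pair of fragments 8 (99195180 to 99198766, an intron of Nhsl2) and 46 (99363501 to 99367157, between genes), 168 kb apart. Its full-length values were 3.34 at the lowest, 7.45 at the median and 40.2 at the highest. The range covers that of the untagged parental line, 4.30 to 17.6. Its level differed between runs and within them. The full-length libraries 3b and 4b had 40.2 and 22.7 times the expected value and those of the run shared with Y226A/F228A had 8.01 and 6.20. In that latter run dN(1-265) clone 1 had 17.8 and 10.2 and dN(13-33) clone 1 10.1 and 5.23. Y226A/F228A had 3.54 and 3.20 there and the double mutant 3.02 and 1.80, the last being the lowest of all 91 libraries. The fitted log2 changes against all full-length libraries were -1.41 ± 0.53 in Y226A/F228A (SE, limma adjusted p = 0.287) and -1.93 ± 0.53 in the double mutant (limma adjusted p = 0.407), and neither passed. The next was the pair of fragments 2 and 20 (99253549 to 99261923, an intron of Nhsl2 with the end of Rgag4), 82.0 kb apart. Fragment 20 holds the peaks at 99254823 and 99261600 printed above. The full-length values were 2.58, 5.23 and 8.60 at the lowest, median and highest. The following 3 were fragments 13 and 39 (mean 3.75), 4 and 20 (3.16) and 1 and 28 (3.09). Each of the 5 highest members has at least 1 end in Nhsl2, as have 423 of all 491 members (86.2%), and 3 have an end in the first 20 kb, as have 126 of all members (25.7%).

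The pair of fragments 2 and 20 was below the full-length median in every library without dox, of Y226A/F228A and of dN(1-265), and above it in every parental library. It was also below the median in every library of dN(1-89), dN(90-178), dN(179-265), dN(264-288), H288R, sumoylation mutant 1, N/C swap, dN(13-33)+Y226A/F228A, Del_576-614, Del_577-736 and Del_615-736. All libraries of dN(1-31) clone 1, dN(13-33) clone 2 and sumoylation mutant 2 lay above the median. The other transgene lines had libraries on both sides. The pair was picked for its high full-length value. Without dox its 2 values were 2.67 and 2.87 times the expected value, and in Y226A/F228A they were 2.24 and 2.37. In dN(1-265) clone 1 they ran from 1.27 to 2.93 with a median of 2.66, and in clone 2 they were 2.95, 3.06, 3.53 and 3.69. In untagged parental cells they were 7.65, 8.20 and 10.01, and in the CTCF-AID parental line 5.86, 6.02, 10.6 and 11.1. The dN(1-265) libraries overlapped the lower end of the full-length range, and the untagged libraries its upper end. Levels also differed by run: the full-length libraries of the run with the highest domain values had 8.60 and 8.02, those of the run shared with Y226A/F228A 4.30 and 2.58, and dN(1-265) clone 1 in that latter run 1.27 and 2.00.

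**Figure D4:**
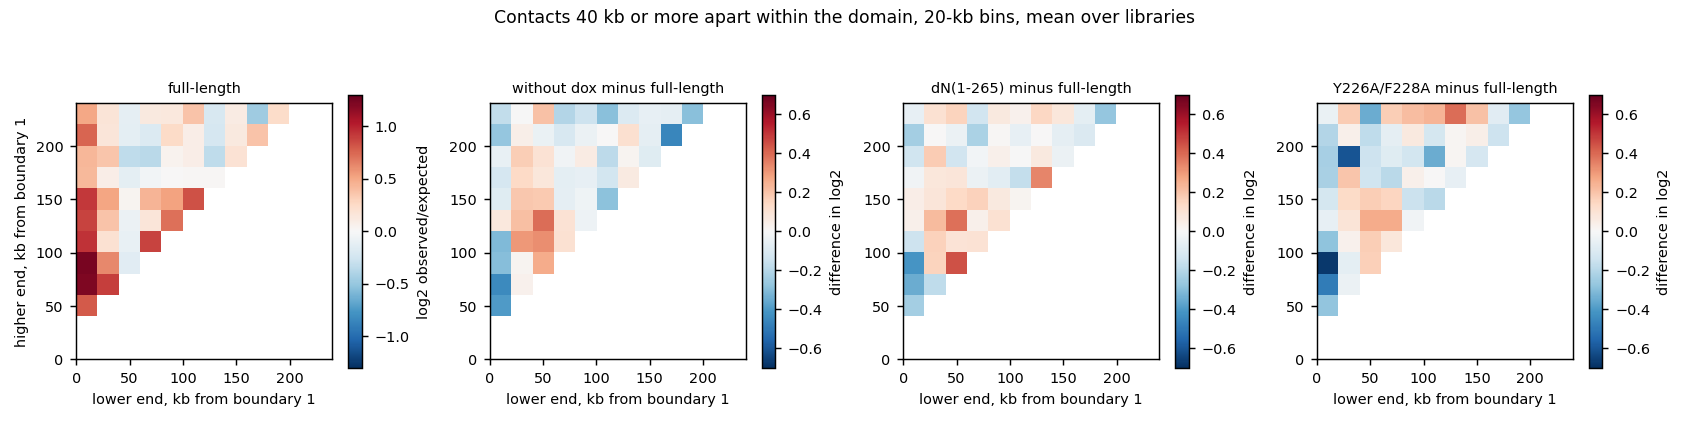
Maps of the domain in 20-kb bins, both axes in kb from boundary 1. Full-length contacts are log2 observed/expected, and the other 3 panels give the difference in log2 of a group's mean from it. In the difference panels blue squares (lower than full-length) fill most of the first column below 120 kb, and warm squares (higher) lie mostly in the columns from 20 to 80 kb.

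The first comparison asks whether contacts in the domain depend on CTCF. The boundaries were kept for not being shared with auxin-treated cells of earlier data. A rise across them without CTCF was therefore favoured in advance. Without dox the domain value was 0.25 (0.23 and 0.27), lower than full-length by 0.066. Both libraries lay below the 14 full-length ones, and p was 0.0167 in a two-sided exact permutation test, the smallest that 2 against 14 libraries allow, with an adjusted p of 0.0667 over 20 comparisons. Within the run that held both, the difference was -0.082 (2 against 2 libraries). Without the single highest member, the pair of fragments 8 and 46, the pooled difference was -0.067, an alternative chosen after seeing the data. There p was again 0.0167, and only the adjusted p moved, to 0.0476, which passed (exact permutation test). The adjusted p depends on how many of the 20 comparisons reach a low p, so this call adds nothing on this line. Across boundary 1 the value was 0.45 against 0.26, a difference that did not pass (exact permutation test, adjusted p = 0.0556). Across boundary 2 it was -0.35 against -0.52 and passed (exact permutation test, adjusted p = 0.0476). The difference was 0.19 across boundary 1 and 0.17 across boundary 2, so passing does not mark the larger one. The contrast, defined as the domain value minus the value across both boundaries, was 0.13 against 0.38, a difference of -0.25 that did not pass (exact permutation test, adjusted p = 0.0632). In the first 20 kb the 2 libraries had 0.56 and 0.62, below the full-length range of 0.71 to 0.98. The 120 members joining the first and last 60 kb had 0.22 against 0.24, inside the full-length range.

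dN(1-265), which the paper describes as lacking the entire N-terminal domain, differed from full-length in contacts across boundary 1 more than in those within the domain. Clone 1 had 0.28 ± 0.015 (SD, n = 6) and clone 2 0.29 ± 0.025 (n = 4) within the domain, with adjusted p of 0.0667 and 0.480 (exact permutation test). Without the highest member the clone 1 difference was -0.036, against -0.033 with it, and passed (exact permutation test, adjusted p = 0.0476). Across boundary 1 clone 1 had 0.36 at the lowest, 0.39 at the median and 0.50 at the highest, against 0.18 to 0.41 in full-length. It was higher by 0.15 (exact permutation test, adjusted p = 0.0124), and by 0.11 within runs, where it did not pass (exact permutation test, p = 0.00556, the smallest possible there, adjusted p = 0.111). Clone 2 was higher by 0.11 (exact permutation test, adjusted p = 0.0556), inside the full-length range. The contrast fell by 0.15 in clone 1, from 0.38 to 0.24 (exact permutation test, adjusted p = 0.0144), with 3 of 6 libraries below all 14 of full-length. It was the only one of 20 transgene comparisons whose contrast passed. Larger differences did not pass in Y226A/F228A (-0.317), without dox (-0.248), dN(13-33)+Y226A/F228A (-0.246) and N/C swap (-0.155), against -0.147 in clone 1. These lines had 2 libraries each against 6, and their smallest attainable p was higher. Passing therefore does not mark the largest difference. Permuting within runs, the clone 1 difference was -0.099 and the adjusted p 0.111 (exact permutation test), with the same p of 0.00556. Leaving out any 1 library of either group kept the call. In clone 2 the contrast differed by -0.11 (exact permutation test, adjusted p = 0.0632). In the first 20 kb the 10 dN(1-265) libraries had 0.60 to 0.71, none within the full-length range, and in the last 20 kb they had -0.091 to 0.092, against -0.064 to 0.17.

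Y226A/F228A, a pair of substitutions in the motif that contacts cohesin, had the lowest domain values. Its 2 libraries were at 0.20 and 0.22, below all full-length libraries, and 0.10 lower on average (exact permutation test, p = 0.0167, the smallest attainable, adjusted p = 0.0667). Without the highest member the difference was no larger, at -0.094, and p was again 0.0167. Only the adjusted p moved, to 0.0476, which passed (exact permutation test). The contrast was 0.066 against 0.38 (exact permutation test, adjusted p = 0.0632). Across boundary 2 the value was -0.31 in both libraries, higher by 0.21 (exact permutation test, adjusted p = 0.0476). All Y226A/F228A libraries came from 1 run, whose 2 full-length libraries also had low domain and high boundary 1 values. Within that run the differences were -0.066 in the domain, -0.17 in the contrast, 0.083 across boundary 1 and 0.15 across boundary 2, and 2 against 2 libraries allow no p below 0.333. The part of the run in the pooled differences was not tested further. dN(13-33)+Y226A/F228A, from the same run, had a domain value of 0.24 in both libraries and a within-run contrast difference of -0.10. Between the first and last 60 kb Y226A/F228A had 0.024 and the double mutant -0.0088, below the full-length range of 0.11 to 0.53, with an adjusted p of 0.167 for both (exact permutation test). Part of that gap was the pair of fragments 8 and 46. Without it the values were -0.0039 and -0.026, against 0.14 in full-length. Both means stayed below the full-length range, then 0.041 to 0.25, with an adjusted p of 0.111 for both (exact permutation test).

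The contrast of dN(1-265) lay between those of full-length and of cells without dox. It was 0.25 over both clones, higher than without dox by 0.12 in 10 of 10 libraries (exact permutation test, adjusted p = 0.0404). The groups share no run, the full-length contrast averaged 0.44 in the run of the libraries without dox and as little as 0.24 in a run that held dN(1-265), and run and group cannot be told apart. With 1 library without dox left out no call is possible, since 1 library remains. The difference stayed between 0.097 and 0.13 with any library of the 2 groups left out. On raw counts that difference was 0.074 and did not pass (exact permutation test, adjusted p = 0.162). Y226A/F228A was lower than dN(1-265) by 0.18 (exact permutation test, adjusted p = 0.0404), and by 0.14 within the run they share, where 2 against 2 libraries allow no p below 0.333. With 1 Y226A/F228A library left out no call is possible either, and the difference stayed between -0.19 and -0.18 with any library left out. On raw counts the difference of Y226A/F228A from dN(1-265) did not pass (exact permutation test, adjusted p = 0.0606). The 10 libraries of dN(13-33), a smaller deletion, had a contrast of 0.39, higher than dN(1-265) by 0.14 (permutation test, adjusted p = 0.0019), and within runs by 0.088. The N/C swap differed from dN(1-265) by -0.023 (exact permutation test, adjusted p = 0.364).

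Contacts across boundary 2 rose in 7 of 20 transgene lines at an adjusted p of 0.0476 each (exact permutation test). Beside cells without dox, Y226A/F228A and dN(13-33)+Y226A/F228A these were dN(264-288) (-0.35), N/C swap (-0.34), Del_576-614 (-0.42) and dN(179-265) (-0.45), against -0.52 in full-length. Within runs the 7 differences ran from 0.061 to 0.18, with 2 to 4 full-length libraries each. The calls sat at the limit of the design. Leaving out 1 full-length library in turn lost each call in 13 of 14 cases, with an adjusted p of up to 0.0544 (exact permutation test), and without replicates 3b and 4b it was 0.0628. Without replicate 1 of Del_576-614, whose label names another deletion, the difference was 0.083 (exact permutation test, adjusted p = 0.111). The single Del_577-736 library had -0.28, the highest of all libraries, and Del_615-736 -0.50, with no test.

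The other transgene lines stayed within or near the full-length spread in the domain. Their means ran from 0.26 in Del_576-614 to 0.37 in dN(1-31) clone 2, and none of the 20 comparisons of the domain value passed (exact permutation test, 5 at unadjusted p under 0.05). Without the highest member 7 of 20 passed at an adjusted p of 0.0476 each (exact permutation test): beside cells without dox, dN(1-265) clone 1 and Y226A/F228A these were the double mutant (-0.064), Del_576-614 (-0.046), dN(1-31) clone 1 (0.048) and dN(1-31) clone 2 (0.066). The calls came together, because the adjusted p depends on how many of the 20 comparisons reach a low p. The low-expression full-length line had 0.29 in both libraries, a difference of -0.021 (exact permutation test, adjusted p = 0.694). The untagged parental line had 0.34 in the domain, 0.11 across boundary 1 and -0.70 across boundary 2, and was compared only within the endogenous lines. For members with a peak within 10 kb of both midpoints (130), minus the others, the full-length value was 0.34 ± 0.099, and none of 20 comparisons passed (exact permutation test). With all members the 2 clones of dN(1-265) were unlike, at -0.11 in clone 1 and -0.015 in clone 2. Without the highest member 1 comparison passed, that of dN(1-265) clone 1 and not clone 2, at -0.12 (exact permutation test, adjusted p = 0.0114). Y226A/F228A had 0.17 there (adjusted p = 0.167, exact permutation test). Against the other segments none of 20 passed either, the largest gap being 0.083 in dN(1-31) clone 2 (exact permutation test, adjusted p = 0.167).

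The endogenous d13-33 lines carry the deletion in CTCF's own gene, and no comparison with their parental lines passed. In the untagged background the 7 libraries of both clones had a domain value of 0.35 against 0.34 in the parental line (exact permutation test, adjusted p = 0.886). With the AID tag, 8 libraries had 0.34 against 0.32 (exact permutation test, adjusted p = 0.716). The clones of the untagged background lay on either side of their parent: clone 1 was above all 3 parental libraries by 0.031 on average and clone 2 had 3 of 4 libraries below them, lower by 0.017. No difference between the 2 backgrounds in the effect of the deletion passed (two-sided permutation test of the difference, adjusted p = 0.735 for each of 5 measures). Contacts across boundary 2 were higher than in the untagged parent by 0.078 (exact permutation test, p = 0.0333, adjusted p = 0.152).

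Single members were tested in the same linear model as all other pairs 40 kb or more apart (limma on log2(value + 1), 86906 pairs in the transgene fit, Benjamini-Hochberg adjustment over all of them). All 491 members had a mean value of 1 or more and entered it. In dN(1-265), both clones against full-length, 2 members were called, both lower, beside 0.82% of all pairs. The first was the pair of fragments 2 and 20, with a log2 change of -0.98 ± 0.17 (SE, limma adjusted p = 0.00058). Its scaled values were 17.5, 41.7 and 50.3 (per 1000000) at the lowest, median and highest of 10 libraries, against 35.7, 78.8 and 110 in full-length, so the 2 ranges overlapped. In clone 1 the change was -1.17 ± 0.20 (limma adjusted p = 0.00071) and in clone 2 it was -0.69 ± 0.23 and did not pass (limma adjusted p = 0.205). The same pair changed by -1.23 ± 0.30 in Y226A/F228A (limma adjusted p = 0.0526), by -0.99 ± 0.30 in the N/C swap (0.666), by -0.86 ± 0.30 without dox (0.615) and by -0.85 ± 0.30 in the double mutant (0.786), none of which passed. The second was fragments 41 and 53 (99400429 to 99400646), 43.3 kb apart, at -0.52 ± 0.13 (limma adjusted p = 0.0367), again with overlapping ranges. At an unadjusted p under 0.05 were 58 members (11.8%), against 12.6% of all pairs. With a term for the run 1 member was called, beside 0.246% of all pairs, and without full-length replicates 3b and 4b 5 were, beside 1.48% of all pairs.

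In Y226A/F228A, 2 members were called, both lower, beside 0.306% of all pairs. Fragments 3 and 43, 182 kb apart, were at 0 and 1.72 per 1000000 against 3.68 to 17.6 in full-length (limma adjusted p = 0.00731). Fragments 10 and 44 were at 0 and 2.41 against 3.60 to 11.3 (limma adjusted p = 0.021). Both pairs are among the less frequent, at 1.02 and 0.691 times the expected value in full-length. Of the members, 68 (13.8%) had an unadjusted p under 0.05, and 65 of those were lower, or 13.2% of members, where over all pairs the shares were 11.04% and 7.15%. The median change over members was -0.14 and over all pairs -0.058. All pairs include those more than 240 kb apart, as no member is, so the 2 sets are unlike in separation. With a term for the run 1 member was called, beside 0.0759% of all pairs, and with a pseudocount of 0.1 12 were, beside 1.29% of all pairs. Without dox no member was called, beside 0.0104% of all pairs (limma, 34 members or 6.92% at unadjusted p under 0.05 against 6.54% of all pairs, 0 members called by edgeR's quasi-likelihood test on raw counts), with a median change of 0.027 over members and 0.085 over all pairs.

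Across the other comparisons few members passed, and those named here were picked after their values were seen. dN(1-265) clone 1 alone had 2 members called, beside 0.216% of all pairs: fragments 2 and 20, and fragments 2 and 50, the latter in an exon of Rps4x (limma, log2 change of -1.19, adjusted p = 0.0483). Clone 2 alone had 1 (0.252% of all pairs), fragments 4 and 42, at -1.55 (limma, adjusted p = 0.0226). In dN(1-31) clone 1 it was 1 member (0.112% of all pairs), fragments 13 and 32, at -2.19. In dN(179-265) it was 3 (0.293% of all pairs), with fragments 28 and 53 and fragments 7 and 54 lower and fragments 5 and 35, the latter in an exon of Ercc6l, higher by 1.48 (limma, adjusted p = 0.011). In the other 14 transgene comparisons no member was called, beside 0.0138% of all pairs in N/C swap, 0.0046% in dN(1-89), 0.00345% in sumoylation mutant 1 and in the double mutant, 0.0023% in H288R and in dN(13-33) clone 1, and 0.0% in the rest. Each share of members called is that of a few pairs in 491 and is read only against these backgrounds. In the endogenous fit no pair was called in any of 3 comparisons (limma, 0.0% of all pairs). Unadjusted p was under 0.05 in 2.65% of members and 3.80% of all pairs for both endogenous clones against untagged cells, and in 1.63% and 4.76% for the AID clones against their parent.

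**Figure D5:**
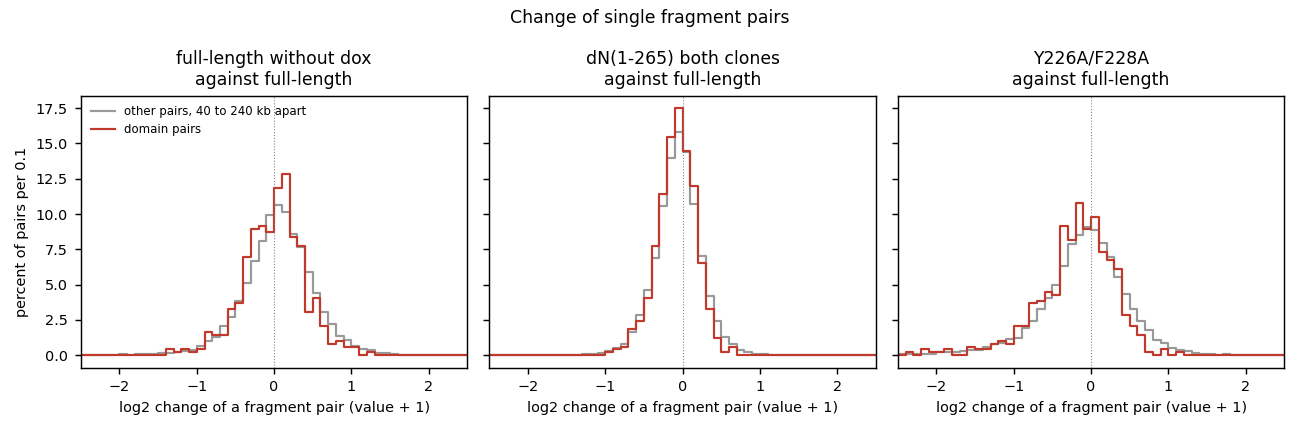
Distribution of the fitted log2 change of single pairs against full-length, in bins of 0.1, for the members (red) and for the other pairs 40 to 240 kb apart (grey), in percent of pairs. The curves largely overlap without dox and in dN(1-265), with member medians of 0.027 and -0.062, and in Y226A/F228A the member curve is shifted to a median of -0.14.

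The pattern of the members was shared by the lines. Over the 491 members the correlation of a line's mean log2 observed/expected with that of the full-length line was 0.66 in the single Del_577-736 library, 0.78 in Y226A/F228A, 0.81 without dox, 0.91 in dN(1-265) clone 1 and 0.88 in the untagged parental line. A single full-length library against the others gave 0.62 to 0.87. These are descriptions over pairs that share fragments, and lines with more libraries have smoother means.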

How the data were processed

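5C libraries of 91 samples were used, with 1 table of CTCF peaks. The authors aligned reads to mm9 (Bowtie2 and SAMtools per the labels, which list the builds mm9 and mm10 and no versions), counted ligations between forward and reverse primers, and iteratively corrected the fragment-level matrices. The deposited raw files hold counts, and the deposited corrected matrices hold a signal that the authors scaled to a sum of 1000000. The deposited peak list keeps peaks shared by 2 FLAG–CTCF libraries and gives coordinates with no signal. Of the corrected matrices, 78 are symmetric and 13 forward by reverse, and each was rescaled to 1000000 over forward-by-reverse pairs. Of the count matrices, 82 are complete and 9 stop early, and 1 library lacks 60 member rows. No deposited column of per-sample values was left unused.

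The measures were log2 ratios of summed corrected values to sums expected in 20-kb classes of separation. Lines were compared by two-sided exact permutation tests on mean differences (100000 resamples where both groups held 10 libraries), with Benjamini-Hochberg adjustment over 20 transgene, 8 endogenous or 4 between-mutant comparisons of a measure, and a call at 0.05. Transgene lines shared the 14 full-length libraries as reference. Single pairs were tested with limma 3.58.1 in R 4.3.3 on log2(value + 1), over pairs at least 40 kb apart with a mean of 1 or more, in 1 fit of 69 transgene and 1 of 22 endogenous libraries. A fold change on this scale understates that of low pairs. Alternatives were raw counts, edgeR 4.0.16 with TMM or DESeq2 1.42.0 size factors, another pseudocount, no filter, run or replicate blocks, other expected values and each library left out. Leaving out the full-length libraries of 1 run, leaving out the highest member, and all alternatives for contacts across single boundaries, were added after seeing the data. The scripts were tested on simulated data.

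Pairs were named as the 5 members highest in full-length and up to 5 called members with the largest change without dox, in dN(1-265) and in Y226A/F228A. Fragments were the 3 highest and 3 lowest, and genes all those annotated in the segment. The members and lists were chosen with earlier results of these data known. Replicate 1 of Del_576-614 was grouped by its cell line. Intervals and counting errors cover counting error only.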

Additional observations from a re-analysis of the deposited data

Results flagged for a closer look

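Among 40 checks of groups of 4 to 10 libraries, 2 libraries lay far from the others of their group, where chance gives about 1 in 20. Replicate 4 of dN(13-33) clone 2 had a domain value of 0.353, and its distance to the nearest of the other 3 libraries was 0.901 of the group's range. Replicate 1 of endogenous d13-33 clone 2 had a contrast of 0.445, with a distance of 0.881 of the range.

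The 102 pairs that meet the rule but are not in the corrected matrices did have raw counts. Their sum per library had a median of 2278 and ran from 684 to 6361, with a median of 16 counts per pair against 120 for the members.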

How the results depend on the processing

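Of 2553 alternative values of 122 results, 2336 kept direction and side of the threshold. The cause of the changes below was not tested. No difference in domain value from full-length was called with all members, while without the highest member, the pair of fragments 8 and 46, it was called without dox (-0.067), in dN(1-265) clone 1 (-0.036), Y226A/F228A (-0.094), the double mutant (-0.064), Del_576-614 (-0.046) and dN(1-31) clones 1 (0.048) and 2 (0.066). Without dox and in Y226A/F228A the unadjusted p was the smallest possible with and without that pair, and only the adjusted p moved. On raw counts the domain difference from full-length changed sign in low expression (0.029), dN(179-265) (0.050), dN(264-288) (0.054), the parylation mutant (0.053), dN(1-265) clone 2 (0.021) and N/C swap (0.022), and in endogenous d13-33 clone 1 against its parent (-0.0010). On the same counts the contrast of N/C swap against dN(1-265) was 0.033, and the value across boundary 2 of both endogenous clones was -0.0017 from untagged cells. With the mean of log2 over single pairs, dN(264-288) was at 0.024, N/C swap at 0.021, dN(1-31) clone 1 at -0.0065, dN(1-265) against without dox at -0.016, both endogenous AID clones at -0.038, AID clone 1 at -0.055, AID clone 2 at -0.020, untagged clone 1 at -0.0060 and CTCF-AID parental against full-length at -0.029. With the share of contacts and no expected value, dN(1-89) was at -0.056, the parylation mutant at 0.069, sumoylation mutant 2 at 0.039, dN(1-31) clones at -0.022 and -0.0022, dN(13-33) clone 2 at -0.028, dN(13-33) against dN(1-265) at -0.028, N/C swap against dN(1-265) at -0.046, both AID clones at -0.032, AID clone 1 at -0.035, AID clone 2 at -0.029 and untagged clone 1 at -0.0041.

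Permuting within runs, the domain difference was -0.066 in Y226A/F228A, -0.038 in the double mutant and -0.024 in CTCF-AID parental against full-length. The contrast was then -0.17, -0.10 and, in dN(1-265) clone 1, -0.099 (exact permutation test, adjusted p = 0.111). Equal replicate numbers did not pair the libraries: in dN(1-265) clone 1 and full-length the correlation of equal-numbered libraries ran from 0.015 to 0.13. With the replicate block the clone 1 contrast was -0.18 (exact permutation test, adjusted p = 0.278), and 1 member was called in Y226A/F228A in place of 2, beside 0.219% of all pairs. Members called in Y226A/F228A, 2 beside 0.306% of all pairs, were 12 with a pseudocount of 0.1 (1.29% of all pairs), 5 with no low-value filter (0.329%), 1 with a run term (0.0759%) and 4 without full-length replicates 3b and 4b (0.477%). Of libraries, only the 2 of Y226A/F228A were left out in turn in this fit, which leaves 1 whose spread is assumed to be that of the other groups: 8 members were called without replicate 1 (0.464% of all pairs) and 3 without replicate 2 (0.196%). In dN(1-265) they were 1 with a run term (0.246%) and 5 without 3b and 4b (1.48%). Single pairs are limited by depth and by 2 libraries in most lines.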
